A study of Mus musculus with 10 samples.

Results

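Chemokines are small secreted proteins that draw leukocytes toward the cells that make them. The 8 genes described here encode chemokines that epithelial cells of the gut are known to make, *Ccl25*, *Ccl28*, *Ccl6*, *Cxcl16*, *Cx3cl1*, *Cxcl1*, *Cxcl9* and *Cxcl10*. They were taken by symbol from the 35275 gene IDs counted in each library, and all 8 were found. RNA was taken from sections of proximal small intestine of 5 WT and 5 KO mice, with 1 library per mouse. The labels give KO mice, age 8 to 10 weeks in both groups, and no treatment. The study's methods describe mice that lack the metal transporter *Zip14* (*Slc39a14*) in the whole body, bred from heterozygous parents, with WT controls of the same strain, both sexes and a commercial chow diet. The title of the series names a deletion in enterocytes instead, and the sex of each mouse is not given. The tissue was whole, so that fewer cells of a type and less RNA per cell cannot be told apart.

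*Slc39a14*, the targeted gene, had between 191 and 357 CPM (counts scaled to the library size after TMM normalization) in WT libraries and between 78.5 and 160 in KO libraries, without overlap. The libraries held between 16729787 and 20819678 counts. The groups also differed in the levels of genes typical of a stretch of the intestine, although the labels give proximal small intestine for both. The 5 ileum genes examined, among them the ileal bile acid binding protein *Fabp6*, summed to between 199 and 237 CPM in WT and between 3245 and 10499 CPM in KO libraries, and all 5 were called higher. Of 7 tested genes of the proximal intestine, 4 were called lower, and the summed level was between 8426 and 15306 CPM in WT and between 92.0 and 1341 CPM in KO libraries. KO replicate 2 also held colon genes, with a summed level of 1298 CPM against at most 54.7 CPM in the WT libraries. The 8 smooth muscle markers summed to between 1064 and 1888 CPM in WT and between 2829 and 8458 CPM in KO libraries, and all 8 were called higher. The part of these differences in the chemokine results was not tested beyond the values given. A difference in the stretch sampled and a change of these genes with genotype cannot be told apart, because the summed levels of ileum and of proximal genes did not overlap between the groups.

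The chemokines act on receptors that mark their target cells. CCL25 is made by the epithelium of the small intestine and draws T cells and plasmablasts that carry CCR9, and CCL28 draws plasma cells that carry CCR10 and also binds CCR3. CCL6 binds CCR1 on myeloid cells. CXCL16 and CX3CL1 are made as membrane-bound proteins that proteases can shed, and they bind CXCR6 and CX3CR1. CXCL1 draws neutrophils through CXCR2 and is induced through NF-kB, and CXCL9 and CXCL10 are induced by interferons and draw activated T cells through CXCR3.

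No member passed the test between KO and WT. Of the 8 members, 7 passed the filter on low counts. In edgeR's quasi-likelihood test 0 of them were called at an adjusted p of 0.05, beside 29.9% of the 15610 genes tested (16.0% called higher and 13.9% called lower). At an unadjusted p under 0.05 there was 1 member, *Cxcl16*, beside 43.3% of all genes tested. DESeq2 gave an adjusted p for all 8 members and called 0, beside 28.2% of the genes for which it gave one. The groups overlapped in every member, whereas 21.1% of all genes tested had groups without overlap. The adjusted p of the 7 tested members lay between 0.0728 and 0.709. Of the 7, 4 had a positive and 3 a negative log2 fold change, with a median of 0.15 beside 0.03 for all genes tested. The median absolute log2 fold change was 0.33 for the members and 0.32 for all genes tested. With TMM scaling 53.5% of all calls were higher in KO, and with scaling to the library total 69.4% were, the median log2 fold change of all genes being 0.15 with that scaling. No member changed sign between these scalings.

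**Figure D1:**
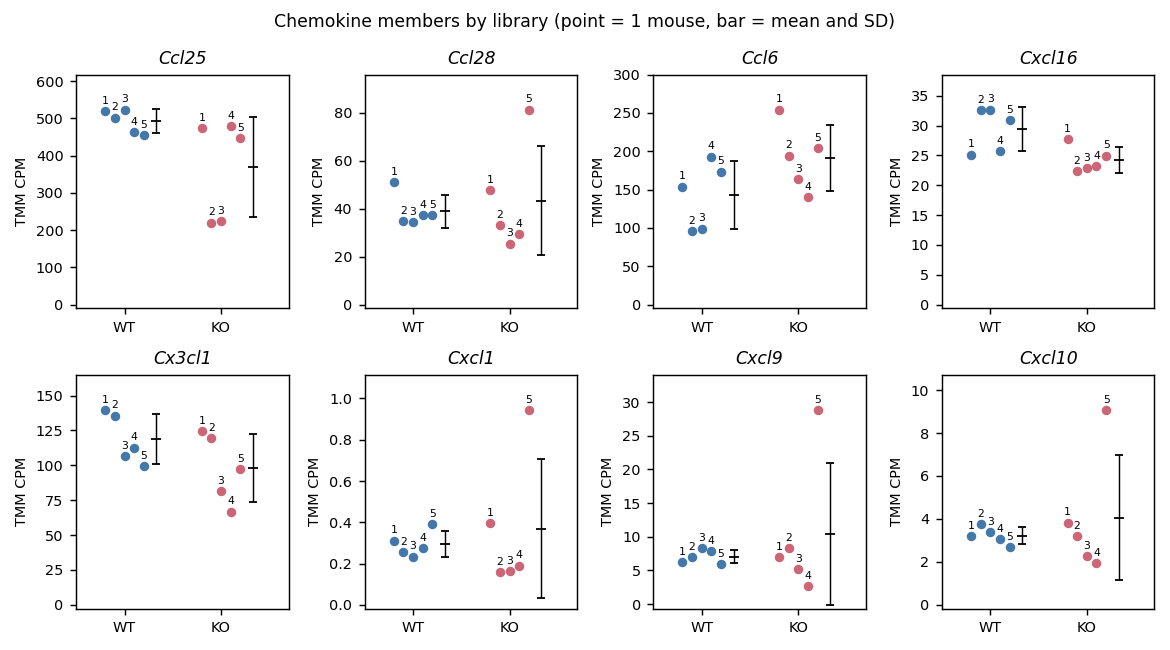
Level of each of the 8 members, in CPM after TMM scaling, in the 5 WT and 5 KO libraries, with 1 panel and 1 vertical scale per gene. Points are libraries, and lines with bars are the group mean and SD, whose lower end lies just under 0 for *Cxcl9* in KO. The groups overlap in every panel, and KO replicate 5 is the highest library for *Ccl28*, *Cxcl1*, *Cxcl9* and *Cxcl10*.

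The members differed widely in level. They are set in order here by CPM per kilobase of the principal transcript. *Ccl25* was the highest in WT libraries (mean 466, range 431 to 495), above *Ccl6* (mean 99.3, range 66.3 to 134) and *Cx3cl1* (mean 35.8, range 30.0 to 42.1). *Cxcl16* (10.9) and *Ccl28* (10.4) came next, and their ranges, 9.31 to 12.1 and 9.19 to 13.6, overlapped. *Cxcl10* (mean 2.95, range 2.46 to 3.44) and *Cxcl9* (mean 2.44, range 2.04 to 2.87) also overlapped, and *Cxcl1* was the lowest (mean 0.308, range 0.245 to 0.412). Where the length of all merged exons is used instead, *Ccl6* (mean 79.7) stood above *Ccl25* (mean 66.2), with ranges that overlapped, and *Cxcl9* (2.34) above *Cxcl10* (1.43). The order of these pairs therefore depends on the length chosen.

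Positions are those of GENCODE M21 on GRCm38, and the annotation used for the counting is not known. *Ccl25* (ENSMUSG00000023235) lies at chr8:4325210-4360020 and *Cx3cl1* (ENSMUSG00000031778) at chr8:94772009-94782427, both on the plus strand. *Ccl28* (ENSMUSG00000074715) lies at chr13:119623819-119654359 on the plus strand. *Ccl6* (ENSMUSG00000018927) lies at chr11:83587882-83593087 and *Cxcl16* (ENSMUSG00000018920) at chr11:70453983-70459984, both on the minus strand. The other three lie on chromosome 5, *Cxcl1* (ENSMUSG00000029380) at chr5:90891241-90893115 on the plus strand, *Cxcl9* (ENSMUSG00000029417) at chr5:92321347-92328079 and *Cxcl10* (ENSMUSG00000034855) at chr5:92346638-92348889 on the minus strand. Exons of 3 members overlap exons of a gene on the opposite strand, *Ccl25* with *Elavl1* over 204 bases, *Cxcl16* with *Zmynd15* over 552 bases and *Cxcl10* with *Art3* over 133 bases. The handling of strand in the counting is not given in the sources used here, so that reads from these stretches cannot be assigned to either gene.

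*Ccl25*, the homing chemokine of the small intestine, had lower values in part of the KO libraries. Its level was 520, 502, 523, 464 and 456 CPM in WT replicates 1 to 5 and 473, 220, 225, 479 and 447 CPM in KO replicates 1 to 5. KO replicates 2 and 3 stood far below all other libraries, and the other three KO libraries lay in or just below the WT range. The mean was 493 ± 31.6 CPM in WT and 369 ± 134 CPM in KO (SD, n = 5 each). The log2 fold change of -0.42 (SE 0.23, 95% interval -0.93 to 0.09) had an adjusted p of 0.187 in edgeR's quasi-likelihood test.

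*Ccl28*, the mucosal chemokine for plasma cells, had 51.0, 34.8, 34.4, 37.4 and 37.4 CPM in WT and 47.7, 33.05, 25.5, 29.3 and 81.4 CPM in KO replicates 1 to 5. KO replicate 5 stood above every other library, and 3 KO libraries stood below every WT library. The log2 fold change was 0.15 (SE 0.29, 95% interval -0.48 to 0.79, edgeR adjusted p = 0.709). Without KO replicate 5 it was -0.20.

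*Ccl6*, a CC chemokine of epithelial and myeloid cells, had a mean in KO above that in WT. Its level was 154, 95.5, 99.2, 193 and 174 CPM in WT and 254, 194, 163, 140 and 204 CPM in KO replicates 1 to 5. The WT libraries fell into a low pair (replicates 2 and 3) and higher ones, and 3 KO libraries stood above every WT library. The means of 143 ± 43.9 CPM and 191 ± 43.4 CPM (SD, n = 5 each) gave a log2 fold change of 0.42 (SE 0.22, 95% interval -0.07 to 0.91, edgeR adjusted p = 0.174).

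*Cxcl16*, a membrane-bound chemokine and ligand of CXCR6, came nearest to the threshold. It had 25.1, 32.5, 32.7, 25.7 and 30.9 CPM in WT and 27.7, 22.4, 22.9, 23.3 and 25.0 CPM in KO replicates 1 to 5. KO replicates 2 to 5 stood below all WT libraries, and KO replicate 1 lay within the WT range. The means were 29.4 ± 3.70 CPM and 24.2 ± 2.17 CPM (SD, n = 5 each), a fold of 0.825 (95% interval 0.700 to 0.973), with an adjusted p of 0.0728 in edgeR's quasi-likelihood test. When KO replicate 1 was left out, an adjusted p of 0.0412 came with a log2 fold change of -0.33, which made it the only call on a member among the 10 fits that left out a mouse.

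*Cx3cl1*, or fractalkine, the other membrane-bound chemokine, had 140, 136, 107, 113 and 99.4 CPM in WT and 124, 120, 81.7, 66.9 and 97.2 CPM in KO replicates 1 to 5. KO replicates 3 to 5 stood below all WT libraries, while KO replicates 1 and 2 lay within the WT range. The log2 fold change was -0.28 (SE 0.17, 95% interval -0.66 to 0.10, edgeR adjusted p = 0.237). ADAM10 and ADAM17 are sheddases of both membrane-bound chemokines, and DPP4 trims several chemokines. Their genes gave 0 calls of 3, beside 29.9% of all genes, with log2 fold changes of 0.06 for *Adam10*, -0.12 for *Adam17* and -0.53 for *Dpp4* (edgeR adjusted p = 0.795, 0.505 and 0.0781).

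*Cxcl1*, *Cxcl9* and *Cxcl10* are the inducible members, and their promoters are shown because their levels turn on the same library. The windows run from 250 bases before to 50 bases after the start of transcription, in RefSeq's GRCm38.p6, 5′ to 3′ on the strand of the gene. A window was found for 7 of the 8 members. Capitals mark matches to an NF-kB motif or to the interferon-stimulated response element ISRE (GAAANNGAAA). The NF-kB motif was GGG, A or G, any base, any base, C or T, C or T, and CC, in that order. The gamma-activated site GAS (TTCNNNGAA) was searched as well, and all motifs were searched on both strands. *Cxcl1* is at chr5:90890995-90891294, *Cxcl9* at chr5:92328030-92328329 and *Cxcl10* at chr5:92348840-92349139.
Cxcl1: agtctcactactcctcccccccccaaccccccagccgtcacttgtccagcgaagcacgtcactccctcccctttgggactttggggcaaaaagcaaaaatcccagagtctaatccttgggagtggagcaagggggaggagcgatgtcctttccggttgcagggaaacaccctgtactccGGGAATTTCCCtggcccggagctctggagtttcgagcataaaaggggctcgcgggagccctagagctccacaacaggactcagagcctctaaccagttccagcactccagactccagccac
Cxcl9: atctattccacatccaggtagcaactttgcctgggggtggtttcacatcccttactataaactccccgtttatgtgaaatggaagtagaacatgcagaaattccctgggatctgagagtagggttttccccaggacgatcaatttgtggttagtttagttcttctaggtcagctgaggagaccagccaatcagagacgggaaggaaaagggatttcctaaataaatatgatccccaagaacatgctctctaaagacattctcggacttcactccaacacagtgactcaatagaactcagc
Cxcl10: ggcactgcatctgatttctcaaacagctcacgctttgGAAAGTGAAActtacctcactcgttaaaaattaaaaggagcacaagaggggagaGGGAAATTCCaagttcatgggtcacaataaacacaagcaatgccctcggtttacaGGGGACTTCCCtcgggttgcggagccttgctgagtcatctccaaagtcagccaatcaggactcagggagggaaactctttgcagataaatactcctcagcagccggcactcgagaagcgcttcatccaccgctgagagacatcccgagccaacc
The *Cxcl1* window holds an NF-kB match on each strand, overlapping, between positions -71 and -61 from the start. The *Cxcl10* window holds an ISRE match from -213 to -204 and NF-kB matches from -159 to -150 and, overlapping on both strands, between -104 and -94. In the *Cxcl9* window, and in those of *Ccl25*, *Ccl28*, *Ccl6* and *Cx3cl1*, none of these letters were found, which says only that they are not in this stretch. Of 32851 promoter windows of this length, 8.46% hold the NF-kB motif, 3.44% the ISRE and 8.3% the GAS.

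*Cxcl9* had 6.28, 6.95, 8.28, 7.91 and 5.88 CPM in WT and 6.99, 8.29, 5.18, 2.72 and 28.9 CPM in KO replicates 1 to 5. KO replicate 5, with 550 counts, stood far above the other libraries, which held between 57 and 158 counts, and KO replicate 4 was the lowest. The log2 fold change was 0.56 (SE 0.51, 95% interval -0.57 to 1.69, edgeR adjusted p = 0.429) with KO replicate 5 and -0.29 without it.

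*Cxcl10* had 3.22, 3.76, 3.38, 3.08 and 2.69 CPM in WT and 3.83, 3.20, 2.27, 1.95 and 9.08 CPM in KO replicates 1 to 5. KO replicate 5 was again the highest and KO replicate 4 the lowest. The log2 fold change was 0.33 (SE 0.38, 95% interval -0.50 to 1.17, edgeR adjusted p = 0.527) with KO replicate 5 and -0.20 without it. Read for read, *Cxcl9* had between 1.85 and 2.57 times the counts of *Cxcl10* in WT libraries, and 1.82, 2.59, 2.29, 1.39 and 3.18 times in KO replicates 1 to 5.

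*Cxcl1*, the neutrophil chemokine, was close to the limit of detection and below the filter, with 6, 4, 4, 5 and 7 counts in WT and 7, 3, 3, 4 and 18 counts in KO replicates 1 to 5. Apart from KO replicate 5, the libraries differed by a few counts. The mean log2 CPM differed by 0.04 between KO and WT (exact permutation test, 2-sided, p = 0.944, n = 5 each, where the smallest p possible is 0.00794), and a difference was not detectable at this depth. The 5 neutrophil markers summed to between 3.08 and 4.23 CPM in WT and between 0.238 and 6.75 CPM in KO libraries, with 0.472 CPM in KO replicate 5. Most of this sum was *Retnlg* in the WT libraries (2.75 to 4.12 CPM), and KO replicate 5 had 0.052 CPM of it, while the other 4 markers were below the filter, *S100a8* with 4 counts in KO replicate 5 and between 0 and 4 elsewhere.

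KO replicate 5 had 4.98 times the mean of the other KO libraries for *Cxcl9*, 4.18 times for *Cxcl1*, 3.23 times for *Cxcl10* and 2.40 times for *Ccl28*. For *Ccl25*, *Ccl6*, *Cxcl16* and *Cx3cl1* it had between 0.990 and 1.28 times that mean. KO replicate 5 was the highest of all 10 libraries in 4 of the 8 members, beside 13.7% of all genes tested. It was also the highest in 10 of 14 tested genes of the interferon gamma pathway, in 5 of 11 of the IL-17, TNF and NF-kB pathways (*Il17rc*, *Il1b*, *Nfkbia*, *Nfkbiz* and *Zc3h12a*) and in 4 of 20 other ligands (*Ccl2*, *Ccl4*, *Ccl8* and *Cxcl5*). Among 5 B and plasma cell markers it was the highest in 1, *Jchain*. The GTPase gene *Gbp2* had at most 25.4 CPM in the other 9 libraries and 124 CPM in KO replicate 5, and the peptide transporter gene *Tap1* at most 93.2 and 288 CPM. *Ifng* itself had 19 counts in KO replicate 5 and at most 3 in any other library, and *Il17a* had 9 counts there and at most 3 elsewhere. The 7 T cell markers summed to 82.9 CPM in KO replicate 5, between 65.5 and 132 CPM in WT and between 38.8 and 87.8 CPM in the other KO libraries, and that library was the highest in 0 of the 7. It was the highest in 3 of 7 macrophage markers, the complement genes *C1qa*, *C1qb* and *C1qc*, and in 5 of 8 epithelial markers. This library is 1 mouse, and these genes were looked at after its chemokine values were seen.

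**Figure D2:**
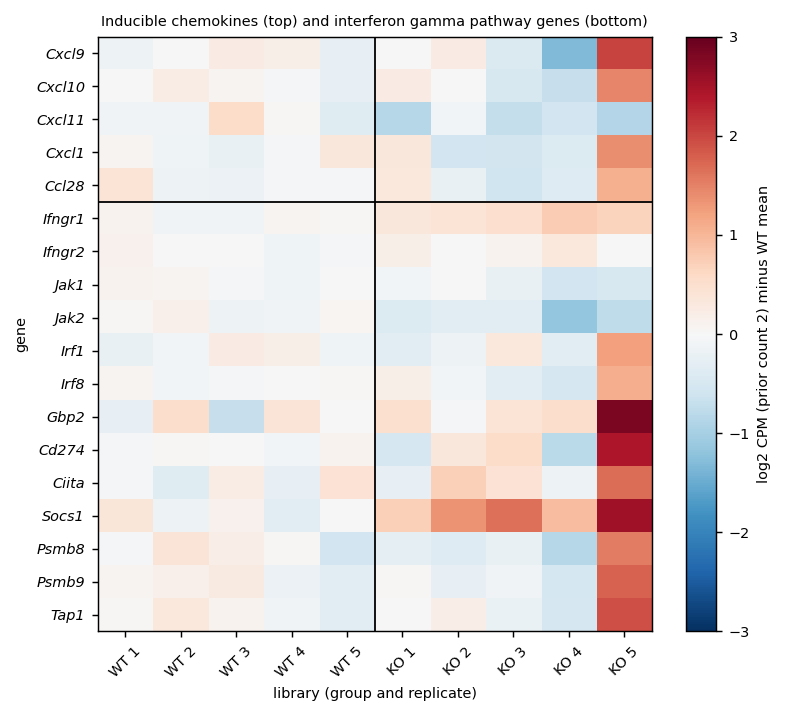
Colours give the log2 CPM (prior count 2) less the WT mean of the same gene, with 1 row per gene and 1 column per library, the chemokines *Cxcl9*, *Cxcl10*, *Cxcl11*, *Cxcl1* and *Ccl28* above the line and 13 of the 14 tested interferon gamma pathway genes under it. The column of KO replicate 5 is red for the chemokines except *Cxcl11* and for most genes under the line, and *Socs1* and *Ifngr1* are red in all 5 KO columns.

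*Cxcl11*, the third CXCR3 ligand, lies beside *Cxcl10* at chr5:92359544-92365485 and did not share this pattern. It had 5.60, 5.61, 8.98, 6.21 and 4.71 CPM in WT and 3.32, 5.72, 3.67, 4.05 and 3.25 CPM in KO replicates 1 to 5, and KO replicate 5 was the lowest library. It fell by 0.64 on the log2 scale (edgeR adjusted p = 0.0491), a call kept in 2 of the 10 fits that left out a mouse, those without WT replicate 5 or KO replicate 2. The call was also lost with scaling to the library total (log2 fold change -0.50, adjusted p = 0.116 in edgeR), without a filter on low counts (0.0598) and with the replicate number as a block (0.0677). The counts of *Cxcl9* were between 0.922 and 1.27 times those of *Cxcl11* in WT libraries and 2.10, 1.45, 1.41, 0.671 and 8.87 times in KO replicates 1 to 5. GENCODE M21 classes *Cxcl11* as a polymorphic pseudogene.

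Set against epithelial RNA, the order of the groups changed for some members. The 8 epithelial markers had a mean log2 CPM between 9.49 and 9.81 in WT and between 10.07 and 10.42 in KO libraries, and 6 of the 8 were called higher, beside 16.0% of all genes tested. Relative to that mean, *Ccl25* was lower in KO by 1.04 on the log2 scale, *Cx3cl1* by 0.84 and *Cxcl16* by 0.81, each without overlap between groups (exact permutation test, 2-sided, p = 0.00794, n = 5 each, the smallest possible). These are 3 of 8 members, beside 42.7% of all genes tested that did not overlap on the same scale. The other five overlapped, with differences of -0.50 for *Ccl28* and *Cxcl1*, -0.43 for *Cxcl9*, -0.42 for *Cxcl10* and -0.09 for *Ccl6*. The result depended on the marker. *Epcam*, a surface protein of all epithelial cells, had 1618 ± 247 CPM in WT and 2274 ± 306 CPM in KO (SD, n = 5 each), and relative to it *Ccl25* differed by -0.9997 and *Cxcl16* by -0.77, without overlap, and *Cx3cl1* by -0.80, with overlap. *Vil1*, the brush border protein villin, had a log2 fold change of -0.49 (edgeR adjusted p = 0.105), and relative to it *Ccl25* differed by 0.05, *Cxcl16* by 0.28 and *Cx3cl1* by 0.25, each with overlap, while *Ccl6* was higher in KO by 1.001 and *Cxcl10* by 0.66 without overlap. These are 2 of 8 members, beside 19.7% of all genes tested that did not overlap relative to *Vil1*, 17.6% with KO higher.

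**Figure D3:**
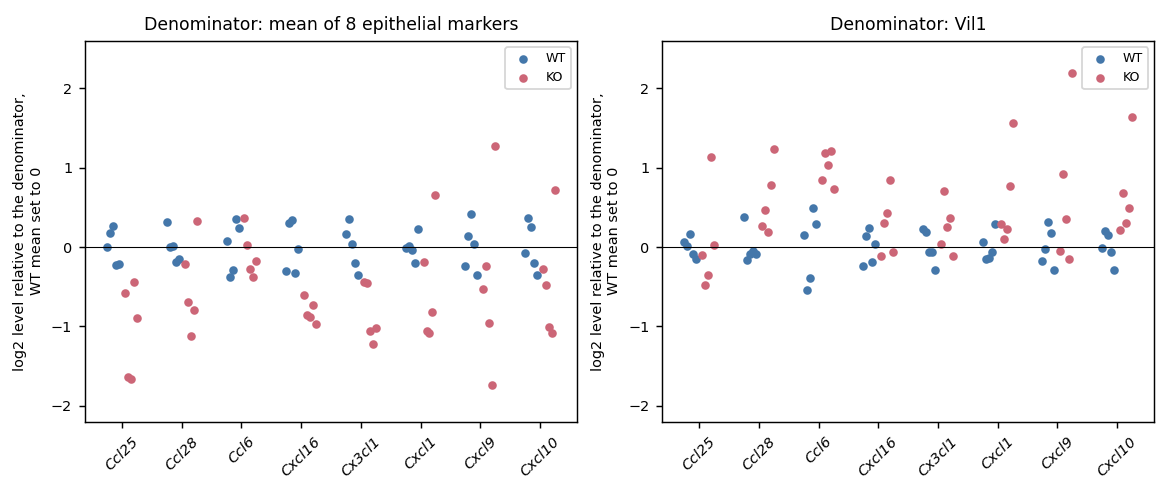
Points are libraries, and the vertical axis is the log2 level of a member relative to the mean of the 8 epithelial markers (left panel) or to *Vil1* (right panel), with the WT mean of each gene set to 0. On the left the WT and KO points of *Ccl25*, *Cxcl16* and *Cx3cl1* do not overlap, with KO lower, and on the right those of *Ccl6* and *Cxcl10* do not overlap, with KO higher.

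Of the 8 receptors that bind the members, 7 were tested and 1 was called, beside 29.9% of all genes. *Cx3cr1*, the receptor of CX3CL1 on macrophages, had 15.6, 16.1, 23.3, 20.004 and 15.5 CPM in WT and 14.9, 14.2, 8.80, 8.67 and 11.2 CPM in KO replicates 1 to 5. Every KO library stood below every WT library. It fell by 0.65 on the log2 scale (SE 0.19, edgeR adjusted p = 0.0256), and the call was lost without WT replicate 3, KO replicate 3 or KO replicate 4 (adjusted p = 0.0665, 0.0530 and 0.0509 in edgeR) and with the replicate number as a block (0.0712). *Ccr9*, the receptor of CCL25, had between 7.99 and 14.4 CPM in WT and 11.0, 5.25, 3.02, 1.86 and 5.88 CPM in KO replicates 1 to 5 (log2 fold change -0.94, edgeR adjusted p = 0.0929). *Ccr3* had a log2 fold change of -1.42 (edgeR adjusted p = 0.0733), and its groups did not overlap. The values were -0.66 for *Ccr10* (adjusted p = 0.199 in edgeR), -0.35 for *Ccr1* (0.167), 0.26 for *Cxcr6* (0.625) and 0.30 for *Cxcr3* (0.539). *Cxcr2* was below the filter, with between 3 and 16 counts in WT and between 0 and 12 in KO libraries. The median log2 fold change of the 7 was -0.65. Of the markers of cells that carry these receptors, those of T cells gave 0 calls of 7, beside 29.9% of all genes. All 7 had a negative log2 fold change, with a median of -0.79. At an unadjusted p under 0.05 in edgeR there were 5 of the 7, beside 43.3% of all genes tested. The macrophage markers gave 1 call lower of 7, beside 13.9% of all genes called lower. It was the growth factor receptor *Csf1r* (log2 fold change -0.83, edgeR adjusted p = 0.0298). The macrophage markers had a median of -0.02 and a summed level of 250.3 to 351 CPM in WT and 187 to 332 CPM in KO. *Jchain*, a plasma cell marker, had between 707 and 1318 CPM in WT and 981, 697, 568, 242 and 1384 CPM in KO replicates 1 to 5, where *Ccr10* had 5.75, 4.09, 2.59, 0.953 and 3.83 CPM. The part of these cells in the receptor values was not tested.

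Among 29 other chemokine ligands, 20 were tested, 3 were called higher and 4 lower, beside 16.0% and 13.9% of all genes tested, with a median log2 fold change of 0.29. *Ccl8*, a macrophage chemokine, had the highest log2 fold change of them, 3.23 (SE 0.67, edgeR adjusted p = 0.00580), with 0.408 to 0.785 CPM in WT and 1.296, 8.97, 8.26, 0.905 and 10.5 CPM in KO replicates 1 to 5. *Cxcl13*, which draws B cells into follicles, rose by 2.33 (adjusted p = 0.0352 in edgeR), and *Ccl21a*, a ligand of CCR7 from lymphatic and stromal cells, by 1.42 (0.00585). Both were also higher in WT replicate 5 than in the other WT libraries. *Ccl24* and *Ccl11*, the eotaxins, fell by 3.78 and by 1.19 on the log2 scale (edgeR adjusted p = 0.00335 and 0.0185), each without overlap. Of the eosinophil markers, whose cells carry CCR3, *Prg2* fell by 1.48 (edgeR adjusted p = 0.0134), without overlap. *Siglecf* was not called, with between 5.72 and 13.6 CPM in WT and 3.10, 25.7, 36.1, 6.86 and 4.30 CPM in KO replicates 1 to 5, and *Epx* was below the filter. The part of these cells in the eotaxin and *Ccr3* values was not tested. *Cxcl14*, a chemokine of resting epithelium and stroma, fell by 0.56 (edgeR adjusted p = 0.0289). Of 14 other chemokine receptors, 12 were tested and 2 were called, beside 29.9% of all genes. *Cxcr5*, the receptor of CXCL13, was higher by 2.11 (edgeR adjusted p = 0.0424), and the scavenging receptor *Ackr4* by 1.09 (0.00903). When each mouse was left out in turn, *Ccl8*, *Ccl21a*, *Ccl24*, *Ccl11* and *Ackr4* were called in all 10 fits. *Cxcl14* was called in 6, not without WT replicates 1, 2 or 3 or KO replicate 3. *Cxcl13* and *Cxcr5* were called in 3, those without WT replicate 5, KO replicate 1 or KO replicate 5. With the replicate number as a block, the calls of *Cxcl14*, *Cxcl13* and *Cxcr5* were lost (edgeR adjusted p = 0.0516, 0.0780 and 0.119), and that of *Cxcr5* was also lost with robust dispersion (0.0517).

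**Figure D4:**
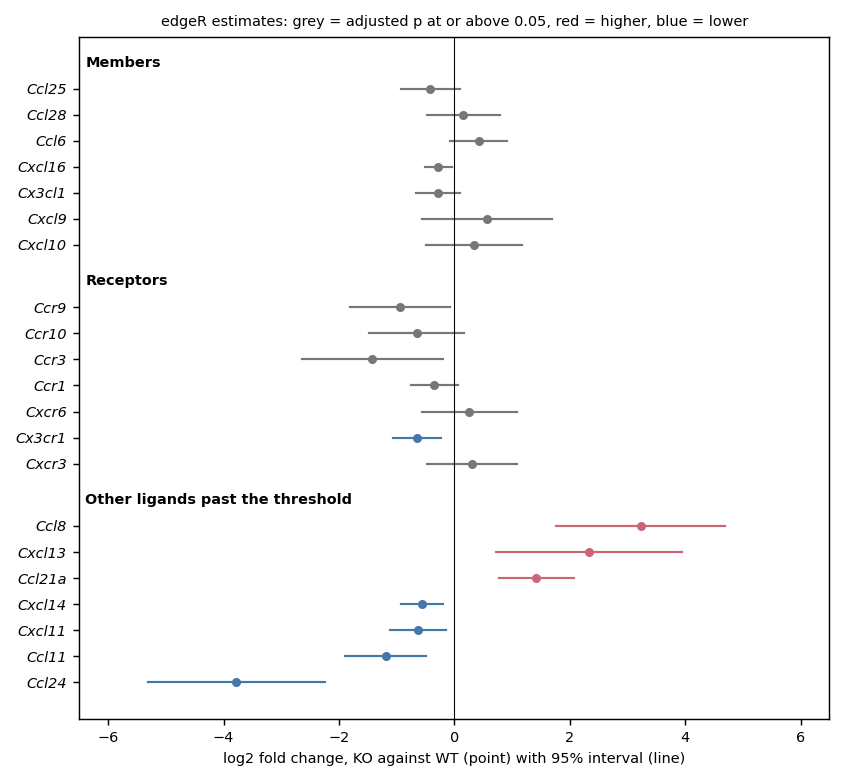
Points are log2 fold changes of KO against WT from edgeR and lines their 95% intervals, for the 7 tested members, their 7 tested receptors and the 7 other chemokine ligands past the threshold. Grey marks genes at or above an adjusted p of 0.05, red those called higher and blue those called lower. The intervals of 6 of the 7 members reach across 0, that of *Cxcl16* runs from -0.51 to -0.04, and *Ccl8* at 3.23 and *Ccl24* at -3.78 are the extremes.

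Of the 15 genes of the interferon gamma pathway, 14 were tested, 2 were called higher and 1 lower, beside 29.9% of all genes called in either direction. The receptor chain *Ifngr1* rose by 0.55 and the feedback inhibitor *Socs1* by 1.596 (edgeR adjusted p = 0.00343 and 0.00581), and the kinase *Jak2* fell by 0.56 (0.0225). *Socs1* had 5.58, 8.60, 10.7, 6.43 and 19.99 CPM in KO replicates 1 to 5 and at most 4.31 CPM in WT libraries. Of 13 genes of the IL-17, TNF and NF-kB pathways, 11 were tested and 3 were called higher, beside 16.0% of all genes called higher. The receptor subunit *Il17rc* rose by 0.75, the cytokine *Tnf* by 1.44 and the inhibitor *Nfkbia* by 0.71 (edgeR adjusted p = 0.0152, 0.0410 and 0.0222). *Cxcl1*, *Cxcl9* and *Cxcl10*, which these pathways induce, were not called beside them. *Ifngr1*, *Socs1* and *Il17rc* were called in all 10 fits that left out a mouse, *Jak2* in 9 (not without WT replicate 2, nor with scaling to the library total, where its edgeR adjusted p was 0.0532), *Nfkbia* in 8 (not without WT replicates 1 or 3) and *Tnf* in 3 (those without KO replicates 1, 2 or 3). *Tnf* had between 0.817 and 1.23 CPM in WT and 1.13, 1.36, 1.19, 4.96 and 4.88 CPM in KO replicates 1 to 5, so that KO replicates 4 and 5 stood apart. Its call was also lost with the replicate number as a block (edgeR adjusted p = 0.0666) and without a filter on low counts (0.0504).

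The genes whose levels followed each member most closely were found from the correlation of log2 CPM over the 10 libraries after the group means were taken out, as a description in which all values share the libraries. Among pairs of members, r was 0.951 for *Cxcl9* with *Cxcl10* (0.801 without KO replicate 5), 0.883 for *Ccl28* with *Cxcl10* (0.593), 0.787 for *Ccl28* with *Cxcl9* (0.277) and 0.461 for *Cx3cl1* with *Cxcl10* (0.911). For *Ccl25* the highest were *Gm1821* (r = 0.987), *Gm9008* (0.983) and *Gm12191* (0.978), all named as gene models. *Ccl28* followed *Ddost* most closely (0.979), and *Tbc1d22a* (0.980) without KO replicate 5. *Ccl6* followed *Zfp703* (0.962), *Cxcl16* followed *Kctd12b* (0.937) and *Cx3cl1* followed *Fam83g* (0.985). For *Cxcl10* they were *Pa2g4* (0.972), *Aars* (0.968) and *Tap1* (0.964) with all libraries. Without KO replicate 5 these had r = 0.874, 0.857 and 0.836, and the closest to *Cxcl10* were *Csf1r* (0.981), *Apobr* (0.976) and *Selplg* (0.976). For *Cxcl9* the highest with a descriptive symbol was *Sbno2* (0.982, and 0.935 without KO replicate 5, where *Zfp335* was the closest at 0.969).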

How the data were processed

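RNA-seq of proximal small intestine covered 5 WT and 5 KO mice. The authors deposited raw counts per Ensembl gene ID for each library (SMARTer mRNA-Seq kit, NovaSeq). The submitters' processing notes name FastQC 0.11.9, Trimmomatic, HISAT2 2.0.4, SAMtools 1.3.1 and DESeq2 1.14.1, with GRCm38 and mm10. For the read counter, annotation and strand setting, the sources used here give nothing. GENCODE M21 gave symbols for 34490 of 35275 IDs.

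Counts were filtered with filterByExpr (a minimum count of 10 and a minimum total of 15), which left 15610 genes. TMM factors and the quasi-likelihood test came from edgeR 4.0.16 in R 4.3.3, with limma 3.58.1 loaded and DESeq2 1.42.0 as an alternative. P-values were adjusted over these genes by Benjamini-Hochberg, and called means an adjusted p below 0.05. The SE is the log2 fold change over the square root of F. *Cxcl1*, below the filter, and levels relative to epithelial markers were compared as mean log2 CPM (prior count 2) with exact 2-sided permutation tests. Tests were run on simulated data with 200 changed genes. Intervals cover the spread between these mice, and p-values rest on 5 mice per group. A count of 0 allows up to 3 counts, for counting error only.

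The members, gene lists and tests were chosen with earlier results of these data known. Named genes were the members, their receptors, at most 4 called genes of each further list by size of change, others whose role the text needed, up to 3 markers per cell type, *Slc39a14*, and the genes closest in pattern. Alternatives were RLE, library total scaling, DESeq2, other filters, robust dispersion, a smooth muscle or epithelial score as a covariate, blocking on replicate number, another prior count, and leaving out each mouse. No library was left out of the main test, and no pair of libraries agreed within sampling noise.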

Additional observations from a re-analysis of the deposited data

Results flagged for a closer look

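A library was singled out where the gap between the highest or lowest of 5 values and its neighbour, over the range of the group, exceeded Dixon's 95% critical value. This met 7 of the 62 groups examined (11.3%). The rate of about 1 in 20 for this rule holds for independent groups of normally distributed values. The groups here share libraries, and some genes were included because they were called, so that the share cannot be set against that rate. Among the members, *Ccl28* in WT replicate 1 had 50.96 CPM, against 34.4 to 37.4 in the other WT libraries. *Cxcl9* in KO replicate 5 had 28.85 CPM, against 2.72 to 8.29 in the other KO libraries, and *Cxcl10* in the same library had 9.08 CPM, against 1.95 to 3.83. In WT replicate 5, *Ccl21a* had 25.2 CPM (10.2 to 11.5 in the other WT libraries), *Cxcl13* had 8.07 CPM (1.08 to 1.76) and *Cxcr5* had 3.98 CPM (0.765 to 1.46). *Il17rc* had 281 CPM in KO replicate 5, against 172 to 199 in the other KO libraries.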

How the results depend on the processing

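The number of members called was 0 with every alternative except the fits that left out a mouse, which gave between 0 and 1, the 1 being *Cxcl16* without KO replicate 1. Leaving out a mouse gave between 4 and 9 calls for the other ligands, between 0 and 3 for the receptors, between 31 and 43 for the marker lists and between 3207 and 5507 for all genes, against 7, 1, 34 and 4660. DESeq2 called 2 receptors. The replicate numbers did not pair the mice (r between -0.17 and 0.18 for the 5 numbers). With the number as a block, 4 other ligands and 0 receptors were called. With the smooth muscle score as a covariate, 0 ligands, 0 receptors, 2 markers and 6 of all genes were called, and with the epithelial score the counts were 0, 0, 2 and 6. Both scores separate the groups, so that these fits have little left to compare.

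Signs turned with the smooth muscle score for *Cx3cl1* (0.60), *Ccr9* (0.73), *Ccr10* (1.302), *Ccr3* (0.49), *Ccr1* (0.25), *Ccl11* (0.11), *Cxcl14* (0.21), *Cxcr5* (-0.066) and *Jak2* (0.0099), all as log2 fold changes. With the epithelial score they turned for *Ccl28* (-1.28), *Ccl6* (-0.75), *Cxcl9* (-1.80), *Cxcl10* (-1.13), *Ccr1* (0.0093), *Cxcr6* (-0.87), *Cxcr3* (-0.084), *Ccl24* (0.78), *Cxcl11* (0.16) and *Il17rc* (-0.41). A prior count of 0.5 gave *Cxcl1* a difference of -0.0038. Relative to the epithelial score, an alternative added after seeing the data, the differences were -0.50 for *Ccl28*, -0.087 for *Ccl6*, -0.50 for *Cxcl1*, -0.43 for *Cxcl9* and -0.42 for *Cxcl10*. Over the fits that left out a mouse, the range was -0.20 to 0.29 for *Ccl28*, -0.29 to 0.81 for *Cxcl9*, -0.20 to 0.51 for *Cxcl10* and -0.30 to 0.19 for *Cxcl1*. The cause of these changes was not tested. *Cxcl1* gave no value with robust dispersion, a mean count of at least 10 or the covariates.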
